A study of Mus musculus with 12 samples.

Results

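The genes described here are 10 type II classical cadherins, Cdh6, Cdh7, Cdh8, Cdh9, Cdh10, Cdh11, Cdh12, Cdh18, Cdh20 and Cdh22, chosen by name and matched through their NCBI gene identifiers, out of 45777 genes measured. They were measured in bulk RNA-seq of E12.5 mouse ventral spinal cord, the tissue around the Hb9::GFP reporter, which marks motor neurons (MNs). There were 12 libraries, 3 each from brachial Isl2 +/-, brachial Isl2 -/-, lumbar Isl2 +/- and lumbar Isl2 -/- embryos. All embryos carried the reporter, the controls lacked one functional Isl2 allele, and the mutation was a null allele present in every cell, so the homozygotes (KO) were compared with heterozygotes and not with wild type. Levels are given in TPM, a share of all transcripts corrected for transcript length, rescaled between libraries by size factors, so that levels of different genes can be set side by side.

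Classical cadherins are calcium-dependent adhesion proteins whose ectodomains bind cadherins on the neighbouring cell and whose cytoplasmic tails bind catenins, which couple them to actin. Type II cadherins bind both themselves and a limited set of other type II members, and by this binding they fall into specificity groups: Cdh6, Cdh9 and Cdh10 in one, Cdh8, Cdh11 and Cdh24 in another, and Cdh7, Cdh12, Cdh18, Cdh20 and Cdh22 in the last. In the spinal cord, motor pools, the sets of MNs that innervate one muscle, express different combinations of these proteins, and the combinations are known for their part in sorting MN cell bodies into pools. Isl2, the gene mutated here, encodes a LIM homeodomain transcription factor of postmitotic MNs.

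The members lie on 4 chromosomes (mm10). Cdh6, Cdh9, Cdh10, Cdh12 and Cdh18 follow each other on chromosome 15 with 0 protein-coding genes between neighbours, and gaps of 3.55, 1.96, 1.43 and 0.95 Mb. Cdh8 and Cdh11 are neighbours on chromosome 8, also with 0 coding genes in the 3.21 Mb between them. Cdh20 and Cdh7 lie on chromosome 1 with 21 coding genes in a gap of 4.99 Mb, and Cdh22 stands alone on chromosome 2. Gene spans ran from 123 kb for Cdh22 to 1150 kb for Cdh12, so all are large genes. Other annotated genes overlap 6 members, 3 of them also on the same strand, and each of these overlapping genes averaged at most 1.35 TPM.

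Sequence upstream of an annotated start is shown for 6 members as examples, because homeodomain factors such as Isl2 and the Hox proteins bind sites with the core TAAT. The bases come from the RefSeq promoter table for GRCm38.p6, in which 9 of the 10 members have an entry, and are cut where an exon or the outer end of the gene begins. Annotated starts can lie inside the gene record, as that of Cdh18 does by 488 kb. Capitals mark TAAT on either strand, so that a match on the other strand reads ATTA. The first 4 are members that were lower at the lumbar level, and the last 2 are members that did not pass that test.
Cdh18, chr15:23036213-23036454, + strand, within the gene: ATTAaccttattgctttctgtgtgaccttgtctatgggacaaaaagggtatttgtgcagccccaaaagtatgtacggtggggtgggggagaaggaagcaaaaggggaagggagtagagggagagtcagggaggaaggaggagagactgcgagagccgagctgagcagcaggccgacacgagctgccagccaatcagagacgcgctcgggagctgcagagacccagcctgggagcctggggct
Cdh10, chr15:18820079-18820328, + strand, within the gene: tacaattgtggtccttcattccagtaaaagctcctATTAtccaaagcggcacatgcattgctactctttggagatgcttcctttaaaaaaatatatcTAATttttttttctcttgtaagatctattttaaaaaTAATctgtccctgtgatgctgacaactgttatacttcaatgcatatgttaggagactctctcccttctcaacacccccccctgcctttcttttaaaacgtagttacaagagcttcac
Cdh20, chr1:104768270-104768339, + strand, before the gene: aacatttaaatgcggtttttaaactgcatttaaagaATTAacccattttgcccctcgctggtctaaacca
Cdh22, chr2:165234925-165234987, - strand, before the gene: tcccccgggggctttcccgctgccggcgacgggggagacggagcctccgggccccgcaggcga
Cdh6, chr15:13173676-13173925, - strand, within the gene: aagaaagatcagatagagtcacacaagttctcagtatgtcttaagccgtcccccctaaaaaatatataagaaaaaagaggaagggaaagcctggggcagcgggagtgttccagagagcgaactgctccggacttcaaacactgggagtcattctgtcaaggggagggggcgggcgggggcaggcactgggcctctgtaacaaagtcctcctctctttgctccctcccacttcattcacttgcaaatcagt
Cdh8, chr8:99416472-99416721, - strand, within the gene: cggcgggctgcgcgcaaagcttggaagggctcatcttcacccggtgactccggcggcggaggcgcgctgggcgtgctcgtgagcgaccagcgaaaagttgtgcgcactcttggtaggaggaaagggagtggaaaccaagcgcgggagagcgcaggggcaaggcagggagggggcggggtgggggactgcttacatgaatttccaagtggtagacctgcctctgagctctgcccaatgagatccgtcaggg

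Over whole windows of 250 bases, TAAT was found on either strand in 7 of the 11 members' windows, which belong to 6 genes, and in 54.9% of all 32851 windows in the table. Cdh20 had 4 matches, Cdh10 3, Cdh9 2, Cdh12 and Cdh18 1 each, and of the 3 windows of Cdh7 the first and the third had 2 each. Cdh6, Cdh8 and Cdh22 had 0. Over whole windows the matches did not divide the members by level difference. Cdh22 was lower at the lumbar level and has 0, and Cdh9 did not pass and has 2. However, 159 of the 250 bases of the Cdh9 window lie in exon sequence of the gene, and both matches lie there. In the stretches cut as above, Cdh10 had 3 matches, and Cdh12, Cdh18, Cdh20 and the first Cdh7 window 1 each. Cdh6, Cdh8, Cdh9, Cdh22 and the second Cdh7 window had 0 there. A relation between matches and level difference was not tested. The longer TAATTA, in which 2 TAAT matches overlap, was found in 1 window of Cdh7, against 4.84% of all windows, and TGATTNAT, a composite site of Hox and Pbx proteins, in the window of Cdh9, against 2.82%. These matches are a description of the letters and were not related to binding. The windows also differed in composition: the window of Cdh22 was 77.6% G or C with 30 CpG, and that of Cdh10 was 36.8% with 2 CpG, around a median of 52.4% and 6 over all windows.

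All 12 libraries were deep, with 4.48 to 6.64 Gb of aligned sequence and 22983 to 24191 genes above 0. Isl2 itself ran from 8.29 to 9.68 TPM in brachial heterozygotes and from 4.46 to 7.25 in brachial KO libraries, and from 8.40 to 10.3 against 6.51 to 8.21 at the lumbar level. It passed the threshold of the study at the brachial level (−0.61 on the log2 scale, unadjusted p = 0.0108) and not at the lumbar level, where it was −0.35 (unadjusted p = 0.0287), though the genotypes did not overlap at either. The Hox genes put the libraries at their labelled levels, since Hoxd10 had at most 0.0243 TPM in any brachial library and at least 124 in any lumbar one. MN genes were present in every library, with Mnx1 (Hb9) averaging 43.5 TPM in brachial and 52.9 TPM in lumbar libraries. The brachial KO library of replicate 3 had the least depth and the most red blood cell RNA, with 7 such genes summing to 6456 TPM against 2157 to 4641 in the others.

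All 10 cadherins were expressed in all 12 libraries, over a wide range of levels. Cdh11, also known from mesenchyme and bone, was highest by far, with 55.2 to 66.6 TPM over the 12 libraries and a mean of 61.9. Cdh6, Cdh8, Cdh10 and Cdh22 formed a middle group with means of 24.8, 20.0, 18.2 and 16.6 TPM. Cdh7, Cdh18 and Cdh9 followed with 9.09, 8.58 and 8.18 TPM, and Cdh12 and Cdh20 were lowest with 3.86 and 3.54 TPM.

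At the brachial level this order was Cdh11, Cdh6, Cdh10, Cdh8, Cdh22, Cdh7, Cdh18, Cdh9, Cdh12 and Cdh20. Only 3 of its 9 steps separated the 6 libraries of one gene wholly from those of the next, namely Cdh11 from Cdh6, Cdh22 from Cdh7, and Cdh9 from Cdh12. Cdh10 and Cdh8 differed by 0.188 TPM on average and Cdh7 and Cdh18 by 0.066, with the first gene higher in 4 of 6 libraries in both pairs, so these neighbours did not differ beyond their spread. At the lumbar level Cdh10 stood below Cdh8 and Cdh22, Cdh9 stood above Cdh7 and Cdh18, and Cdh12 was last. There too 3 steps separated neighbours wholly, Cdh11 from Cdh6, Cdh10 from Cdh9, and Cdh18 from Cdh20, while Cdh9 exceeded Cdh7 in 3 of 6 libraries and Cdh20 exceeded Cdh12 in 2 of 6.

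**Figure D1:**
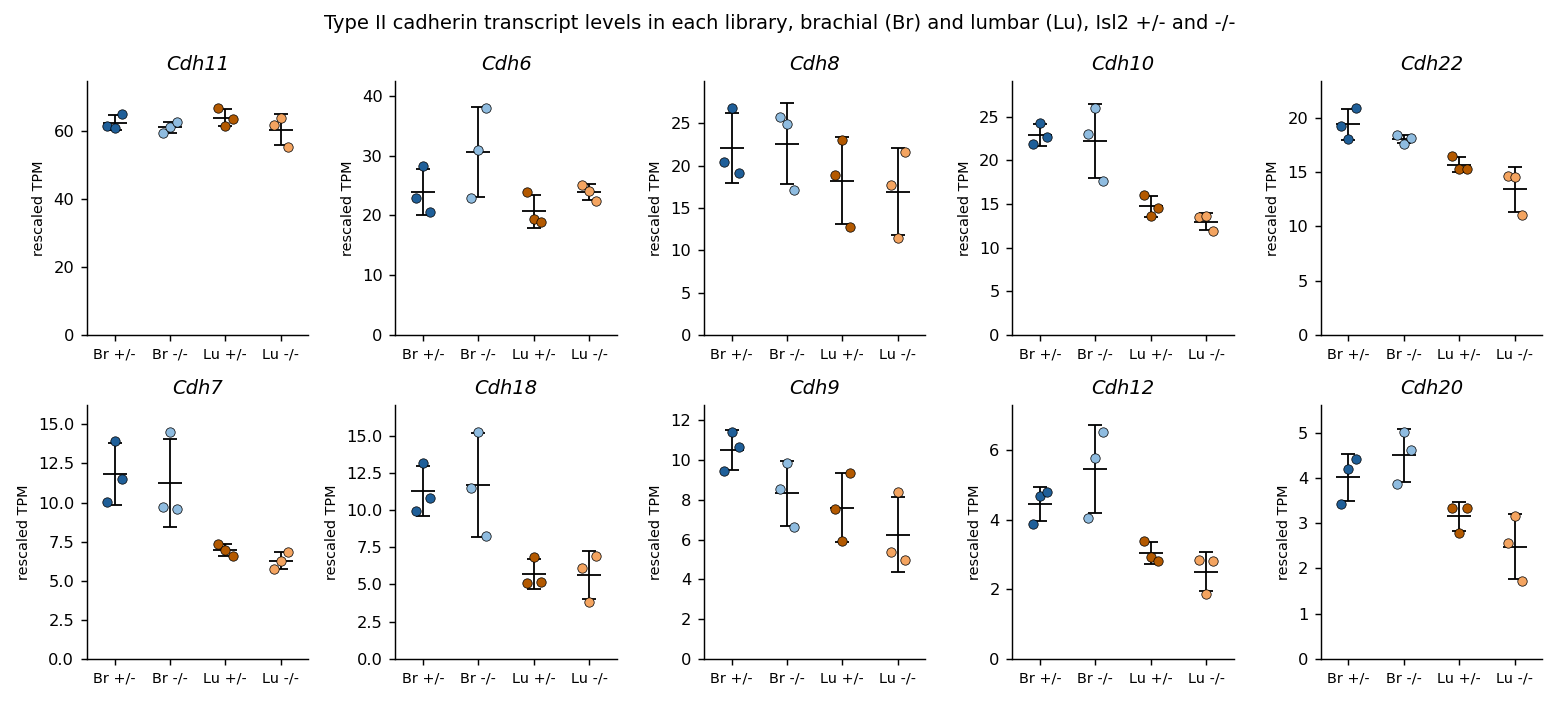
Level of each type II cadherin in rescaled TPM (vertical axes, each from 0) in the 3 libraries of each group (points), with the group mean and SD (bars), genes ordered by their mean over all libraries. Lumbar points of Cdh10, Cdh22, Cdh7, Cdh18, Cdh12 and Cdh20 all sit below the brachial points, and those of Cdh11 lie between 55.2 and 66.6 in every group.

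The first comparison asked how the cadherins differed between ventral cord of the forelimb and hindlimb levels. At the lumbar level 6 of the 10 members, Cdh18, Cdh12, Cdh7, Cdh10, Cdh20 and Cdh22, were lower than at the brachial level, and 0 were higher. Over all 16736 genes tested, 9.65% were called lower and 8.88% higher at an adjusted p under 0.05 (limma, all 12 libraries, genotype as a term). All 6 members also had every lumbar library below every brachial one, as had 4.68% of all genes. With values as deposited the median of all genes moved by −0.13, 2214 genes were lower and 646 higher in place of 1615 and 1486, and 7 members were lower, Cdh9 included. The median difference of the 10 members was −0.53 on the log2 scale against 0.01 over all genes, and 9 of the 10 lay below 0. Since the libraries are of bulk tissue, fewer cells of a type and less RNA per cell cannot be told apart here.

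The members that fell include all 5 of the specificity group of Cdh7, Cdh12, Cdh18, Cdh20 and Cdh22. Sorting the members by specificity group was chosen after their values were seen, so it is a description and was not tested.

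Cdh18, a cadherin of the developing nervous system, differed most. In the brachial libraries it stood at 9.94, 13.2 and 10.8 TPM in heterozygotes and 11.5, 15.2 and 8.26 TPM in KO embryos. The lumbar values were 5.11, 6.85 and 5.13 TPM in heterozygotes and 6.11, 3.82 and 6.94 TPM in KO embryos. The highest lumbar library was thus below the lowest brachial one, in both genotypes. The level fell by 1.01 on the log2 scale (SE 0.169, adjusted p = 0.00205 in limma), and the lumbar mean was 49.3% of the brachial mean.

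Cdh12, whose gene lies next to Cdh18, is another brain cadherin and was about as low as Cdh20. Its brachial values were 3.88, 4.68 and 4.80 TPM in heterozygotes and 4.06, 5.78 and 6.52 TPM in KO embryos, and its lumbar values 3.38, 2.92 and 2.80 TPM and 2.84, 1.86 and 2.82 TPM. Its groups did not overlap, but the gap between the highest lumbar and the lowest brachial library, both heterozygous, was small. Cdh12 fell by 0.81 (SE 0.160, adjusted p = 0.00463).

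Cdh7, which neural crest and spinal cord cells are known to express, showed a tight lumbar group. Brachial libraries had 10.1, 14.0 and 11.5 TPM in heterozygotes and 9.71, 14.5 and 9.58 TPM in KO embryos. Lumbar libraries had 7.35, 6.95 and 6.56 TPM in heterozygotes and 5.75, 6.25 and 6.86 TPM in KO embryos. The coefficient of variation was 8.56% over the 6 lumbar and 19.0% over the 6 brachial libraries. The difference was −0.78 on the log2 scale (SE 0.113, adjusted p = 0.000941), and the lumbar mean 57.3% of the brachial one.

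Cdh20, the mouse counterpart of the chick MN-cadherin that was used to show pool sorting, had the lowest mean of the 10 over all 12 libraries, and at the lumbar level stood beside Cdh12. The brachial values were 3.42, 4.19 and 4.43 TPM in heterozygotes and 3.88, 5.02 and 4.61 TPM in KO embryos, and the lumbar values 3.35, 2.78 and 3.34 TPM and 2.56, 3.16 and 1.72 TPM. In heterozygotes the 2 levels nearly touched, with 3.42 TPM in the lowest brachial and 3.35 TPM in the highest lumbar library, while in KO embryos they stood farther apart. Cdh20 fell by 0.60 (SE 0.159, adjusted p = 0.0200). Without the brachial KO library of replicate 2 its adjusted p was 0.0524.

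Cdh22 changed least among the 6. Its coefficient of variation was 6.35% over the brachial and 12.8% over the lumbar libraries. It stood at 19.3, 18.1 and 20.9 TPM in brachial heterozygotes and 18.4, 17.6 and 18.1 TPM in brachial KO embryos. At the lumbar level it stood at 16.5, 15.3 and 15.3 TPM in heterozygotes and 14.6, 14.6 and 11.0 TPM in KO embryos. The groups were apart by about 1 TPM at their nearest libraries. Its difference of −0.37 (SE 0.0755) had an adjusted p of 0.00557.

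Of the specificity group of Cdh6, Cdh9 and Cdh10, only Cdh10 was called. Cdh10 stood at 21.8, 24.2 and 22.6 TPM in brachial heterozygotes, 23.0, 25.9 and 17.6 TPM in brachial KO embryos, 16.0, 13.6 and 14.5 TPM in lumbar heterozygotes and 13.5, 13.6 and 11.9 TPM in lumbar KO embryos. Its lowest brachial value came from the KO library of least depth. The fall of 0.69 (SE 0.0883) had the smallest adjusted p of the members, 0.000433.

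Cdh9 lay at the edge of the call. Its brachial values were 9.44, 11.4 and 10.7 TPM in heterozygotes and 8.54, 9.86 and 6.61 TPM in KO embryos, and its lumbar values 7.55, 5.92 and 9.37 TPM and 5.36, 8.40 and 4.99 TPM. The levels overlapped over both genotypes, and the difference of −0.45 (SE 0.149) had an adjusted p of 0.0510. It passed without the brachial KO library of replicate 3 (adjusted p = 0.0290), without the lumbar heterozygote of replicate 3 (0.0423) or the lumbar KO of replicate 2 (0.0163), with values as deposited (0.0253), with the filter at a mean of 1 TPM (0.0476), and with a replicate block (0.0280).

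Cdh6, a cadherin of subsets of MNs and neural crest, ran from 20.7 to 37.9 TPM at the brachial level with a median of 25.5, and from 18.9 to 25.1 with a median of 23.2 at the lumbar level. The 2 ranges overlapped, and the highest value, 37.9, was that of the brachial KO library of least depth. The difference of −0.26 (95% interval −0.52 to −0.01) had an adjusted p of 0.139. It was 0.0454 without the brachial KO library of replicate 1, and the difference was −0.18 without that of replicate 3 (adjusted p = 0.245).

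Cdh8 and Cdh11 share a specificity group and did not pass. Cdh8, known from several neural circuits, ran from 17.2 to 26.8 TPM (median 22.6) in brachial and from 11.5 to 23.0 TPM (median 18.3) in lumbar libraries, and was one of the most variable members, with a coefficient of variation of 26.4% over the lumbar libraries. Its difference was −0.37 (SE 0.179, adjusted p = 0.172), the same size as that of Cdh22 with more than double the standard error. With coverage in place of TPM its adjusted p was 0.0185.

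Cdh11 was level. It ran from 59.4 to 64.9 TPM (median 61.3) in brachial and from 55.2 to 66.6 TPM (median 62.6) in lumbar libraries, and the difference of 0.01 had a 95% interval of −0.09 to 0.11 (adjusted p = 0.943). Its direction was not stable, and it was −0.13 with values as deposited, where the median of all genes was also shifted, by −0.13.

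Because the lower members fell and Cdh11 stayed level, the make-up of the set differed between levels. The 10 genes summed to 194 TPM ± 11.3 (SD, n = 6) in the brachial and 155 TPM ± 7.86 (SD, n = 6) in the lumbar libraries, and the highest lumbar sum, 169 TPM, was below the lowest brachial one, 182 TPM. Cdh11 made up 29.0% to 34.1% of the sum in brachial and 37.9% to 42.2% in lumbar libraries. Cdh18 made up 5.84% ± 0.506 of it in brachial heterozygotes and 3.58% ± 0.673 in lumbar heterozygotes (SD, n = 3 each), and Cdh10 11.9% ± 0.0912 and 9.23% ± 0.527.

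**Figure D2:**
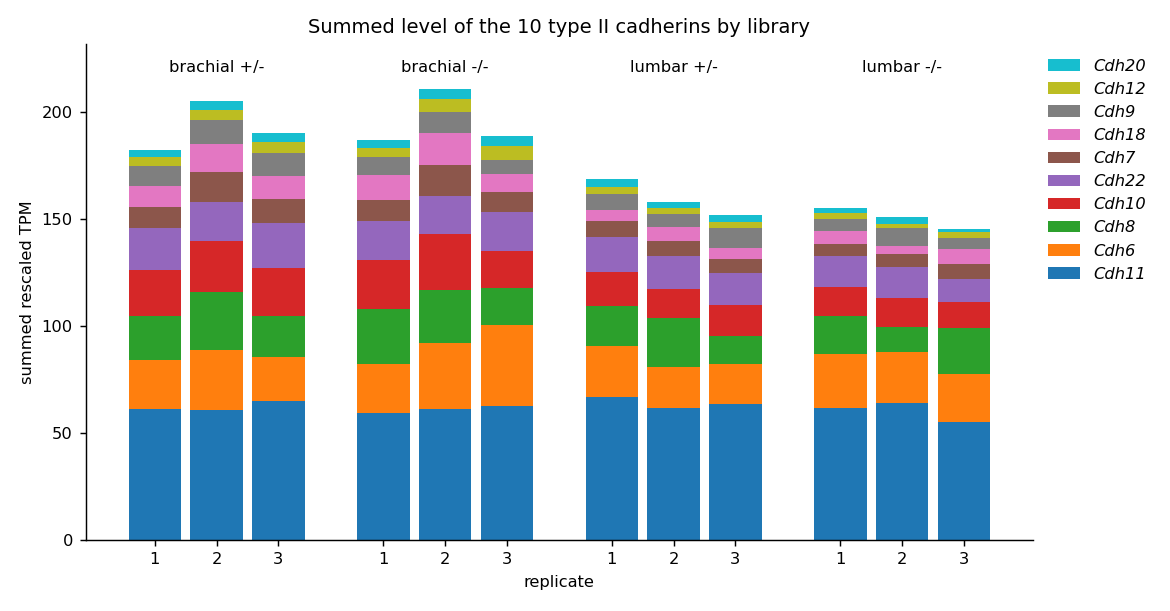
Summed level of the 10 type II cadherins in each of the 12 libraries (vertical axis, rescaled TPM), each bar divided by gene. Brachial bars reach 182 to 211 and lumbar bars 146 to 169, with a Cdh11 section of similar height in all.

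**Figure D3:**
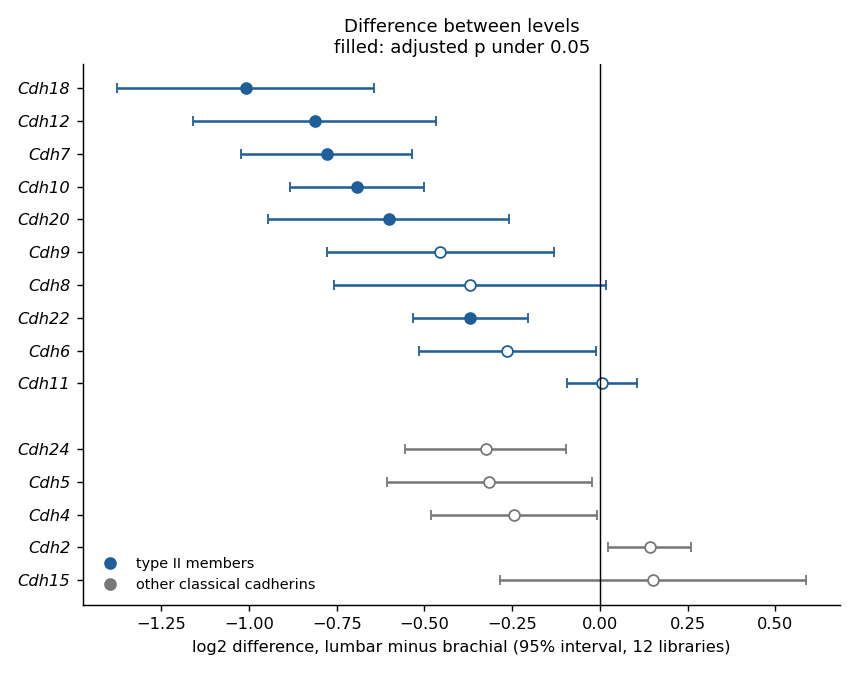
Log2 difference between lumbar and brachial cord (horizontal axis) for the 10 members (blue) and 5 other classical cadherins that passed the filter (grey), with 95% intervals from limma over 12 libraries; filled points have an adjusted p under 0.05. The filled points are 6 members at −1.01 to −0.37, while Cdh11 lies at 0.01 and no grey point is filled.

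The direction was the same in both genotypes for the 9 members below 0, although each genotype alone has only 3 libraries a level. In heterozygotes 3 members were called lower, Cdh18 (−0.98, adjusted p = 0.0228), Cdh7 (−0.75, adjusted p = 0.0295) and Cdh10 (−0.63, adjusted p = 0.0126), where 2.03% of all genes were called lower. In KO embryos 0 members were, against 0.934% of all genes, with adjusted p-values of 0.0524 to 0.102 for the 6 members called in all libraries. In KO embryos these 6 had differences of −1.09 for Cdh12, −1.04 for Cdh18, −0.87 for Cdh20, −0.81 for Cdh7, −0.75 for Cdh10 and −0.44 for Cdh22. Cdh12 and Cdh20 had the widest gap between genotypes, with −0.54 and −0.34 in heterozygotes. The test of that gap is the difference between levels given further on, and it passed for neither.

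**Figure D4:**
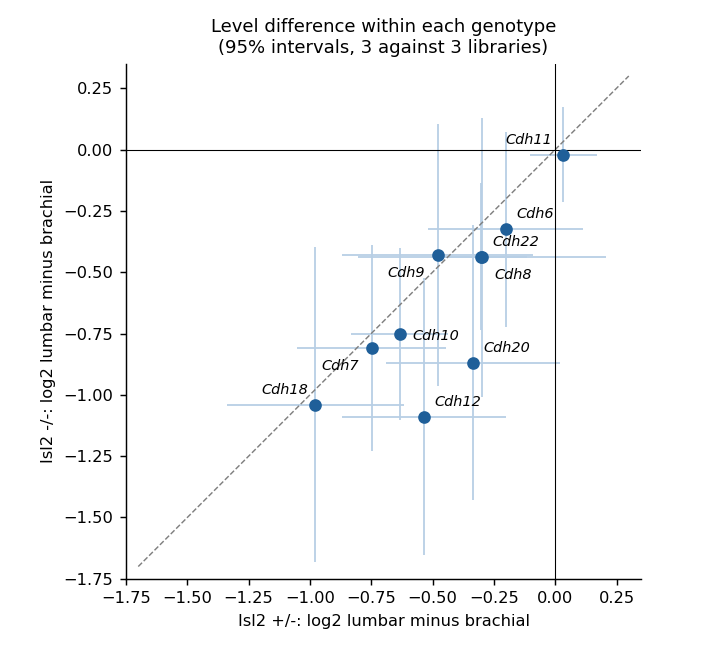
Log2 difference between lumbar and brachial cord in Isl2 +/- (horizontal axis) and in Isl2 -/- embryos (vertical axis), 1 point a gene with 95% intervals from 3 against 3 libraries; the dashed line marks equal differences. All genes but Cdh11 lie below 0 on both axes, and Cdh12 (−0.54, −1.09) and Cdh20 (−0.34, −0.87) lie farthest below the line.

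Other cadherins and the proteins that act with them were read beside the members, and the members were not tested against them. Of the remaining type II cadherins, Cdh24 (13.7 TPM lumbar, 17.0 TPM brachial) and the endothelial Cdh5 were tested and 0 of 2 passed, with Cdh24 at −0.33 (unadjusted p = 0.00936, adjusted p = 0.0502) and Cdh5 at −0.31 (unadjusted p = 0.0365, adjusted p = 0.126), both lower at the lumbar level, and Cdh19 was at most 0.0962 TPM in any library. Of the type I cadherins, 0 of the 3 tested passed; Cdh2, the N-cadherin of neural tissue, averaged 134 TPM in brachial and 147 TPM in lumbar libraries, more than any type II member, and its difference was 0.14 (adjusted p = 0.0887).

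Among 14 catenins and their partners, 3 were lower and 1 was higher in lumbar cord, with a median of −0.05. The lower ones were Ctnna3, an alpha-catenin at low level (−1.80, adjusted p = 0.00575), and the p120-catenin relatives Ctnnd2 (−0.44, adjusted p = 0.0379) and Pkp4 (−0.33, adjusted p = 0.000640). The higher one was Ctnna1, the common alpha-catenin, at 0.39 (adjusted p = 0.00224). Furin, which cleaves cadherin precursors, and the sheddase Adam10 did not pass.

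Markers of several cell types also differed between the levels, and their part in the cadherin differences was not tested. Of 10 MN genes 3 were lower at the lumbar level, Prph (−2.62), Slc5a7 (−1.10) and Aldh1a2 (−0.49), and their sum ran from 576 to 652 TPM in brachial and from 265 to 452 TPM in lumbar libraries. Most of that gap was Prph, at 224 to 318 TPM and 30.9 to 76.4 TPM, and the other 9 summed to 309 to 368 TPM and 231 to 376 TPM, which overlap. The median of the 10 was 0 with 5 below it, and Mnx1, Isl1, Chat and Lhx3 did not pass (0.25, 0.09, 0.16 and 0.45). Of 7 microglial genes 5 were lower, with sums of 25.2 to 40.4 TPM and 11.9 to 24.5 TPM, and of 6 endothelial genes 3 were lower, with sums of 65.2 to 90.0 TPM and 56.5 to 71.1 TPM. Of 12 mesenchyme and cartilage genes 6 were tested and 4 were lower, with sums of 109 to 121 TPM and 79.1 to 107 TPM, and Col1a1, Prrx1, Lum, Meox1 and Pax1 were below 0.5 TPM throughout. Of 6 ventral interneuron genes 4 were higher at the lumbar level, with sums of 25.2 to 39.7 TPM in brachial and 31.9 to 55.4 TPM in lumbar libraries. Progenitor genes were mixed, with 2 of 6 lower, 2 higher and sums of 153 to 206 TPM and 197 to 266 TPM. Of 4 Schwann cell and crest genes tested, Erbb3 was lower (−1.64), with sums of 20.0 to 25.0 TPM and 15.2 to 26.0 TPM, and 0 of 7 blood, 0 of 5 sensory, 0 of 5 dorsal interneuron and 0 of 4 floor plate genes passed. Sums over the blood genes ran from 2158 to 6456 TPM and 2157 to 4641 TPM, over the sensory genes from 5.95 to 9.96 TPM and 4.20 to 7.79 TPM, over the dorsal interneuron genes from 18.5 to 33.5 TPM and 17.5 to 33.4 TPM, and over the floor plate genes from 76.6 to 112 TPM and 73.9 to 111 TPM.

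For each of the 6 members called between levels, genes with the most similar pattern were taken, at most 3 for each, by Pearson correlation of log2 levels over the 12 libraries. These coefficients are the highest among all genes that passed the filter, and the libraries share the split by level, so they are descriptions. Nearest to Cdh18 were Itgb5 (an integrin subunit, r = 0.988), Klf15 (r = 0.979) and Syn2 (a synapsin, r = 0.977), and nearest to Cdh10 were Slc9a3r2 (r = 0.988), Clstn3 (a calsyntenin, itself a cadherin-repeat protein of synapses, r = 0.981) and Zfp551 (r = 0.979). Cdh12 was followed by Pde4d (r = 0.977), Reln (the secreted protein reelin, r = 0.971) and Tmem229b (r = 0.970), and Cdh7 by Mpv17l (r = 0.984) and Tom1 (r = 0.972). For Cdh20 they were Itga6 (an integrin subunit, r = 0.959), Faah (r = 0.945) and Gopc (r = 0.941), and for Cdh22 Gnaz (r = 0.946), Fgfbp3 (r = 0.944) and Atcay (r = 0.943). None of the genes named here was another member.

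The second comparison asked whether loss of Isl2 changed the cadherins. At the brachial level 0 of 10 members passed the threshold of the study, a log2 difference beyond 0.5 with an unadjusted p under 0.05, which 3.10% of the 16935 genes passed, 148 lower and 377 higher (214 and 280 under quantile normalization, 47 and 1211 with values as deposited). That count of 525 rested on single libraries, being 283 without heterozygote replicate 3, 288 without KO replicate 3 and 1396 without KO replicate 1. At the lumbar level 0 of 10 passed, against 1.77% of 16511 genes. Not one member had an unadjusted p under 0.05 at either level. With 3 against 3 libraries an exact two-sided permutation test of 1 gene cannot go below 0.1.

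Brachial differences were spread on both sides of 0, with 5 members below it and a median of −0.01. Cdh6 had the highest, 0.34 (95% interval −0.11 to 0.78): its KO libraries stood at 22.8, 31.0 and 37.9 TPM and its heterozygotes at 22.9, 28.2 and 20.7 TPM. These overlap, and the 37.9 TPM came from the library of least depth, without which the difference was 0.17 (unadjusted p = 0.369), whereas without KO replicate 1 it was 0.53 and passed (unadjusted p = 0.0111), as did 8.23% of all genes in that fit. Cdh9 had the lowest, −0.34 (interval −0.72 to 0.03, unadjusted p = 0.0652), with KO values of 8.54, 9.86 and 6.61 TPM and heterozygote values of 9.44, 11.4 and 10.7 TPM.

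The other brachial differences ran from −0.10 for Cdh22 to 0.27 for Cdh12. For Cdh11 the interval was −0.18 to 0.12 and for Cdh22 −0.30 to 0.10, both within the threshold of 0.5 on either side. For Cdh10, Cdh8 and Cdh7 the bounds were −0.39 to 0.27, −0.40 to 0.46 and −0.53 to 0.36, and for Cdh18, Cdh12 and Cdh20 they were −0.50 to 0.52, −0.19 to 0.72 and −0.22 to 0.54. For none of the 10 members did the libraries of the genotypes stand apart, as they did in 20.0% of all genes. With values as deposited, the median of all genes was shifted by 0.16, and Cdh7, Cdh10, Cdh11 and Cdh22 turned to between 0.07 and 0.15, all below that shift.

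Lumbar differences were below 0 in 9 of the 10 members, with a median of −0.16 against −0.01 over all genes, but each was within the spread of its libraries by the test. Cdh6 was the exception in direction, at 0.21 (interval −0.04 to 0.46), with 25.1, 24.1 and 22.5 TPM in KO embryos and 23.9, 19.4 and 18.9 TPM in heterozygotes. Cdh20 had the lowest value, −0.37 (interval −0.91 to 0.17, unadjusted p = 0.155), followed by Cdh9 at −0.29 (interval −0.84 to 0.25), Cdh12 at −0.29 (interval −0.77 to 0.19) and Cdh22 at −0.24 (interval −0.53 to 0.05).

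Cdh10 and Cdh22 were the 2 members whose lumbar KO libraries all lay below the heterozygotes, a pattern found in either direction in 9.93% of genes. For Cdh10 the nearest libraries were 13.6 TPM in KO and 13.6 TPM in heterozygotes, so the separation is slight, and the difference was −0.18 (unadjusted p = 0.120). For Cdh22 they were 14.6 and 15.3 TPM (unadjusted p = 0.0974). Cdh11 and Cdh7 had intervals of −0.27 to 0.10 and −0.42 to 0.13, again within the threshold, while Cdh8 and Cdh18 spread more widely, −0.73 to 0.51 and −0.59 to 0.49.

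At the lumbar level 2 members passed when KO replicate 2 was left out, and so did more of all genes, 2.68% in place of 1.77%. Replicate 2 had the highest KO value of Cdh9, 8.40 TPM against 5.36 and 4.99, and of Cdh20, 3.16 TPM against 2.56 and 1.72, and without it Cdh9 was −0.52 (unadjusted p = 0.0342) and Cdh20 −0.56 (unadjusted p = 0.0425). The same library had the lowest Cdh8 and Cdh18 of its group, 11.5 and 3.82 TPM, so its departure ran in both directions.

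Markers of other cells lay on both sides of 0 in the lumbar KO, and their part in the cadherin values was not tested. Of the MN genes 9 of 10 were below 0 with a median of −0.29, and Prph passed (−0.78). Of 7 microglial genes 6 were below 0 with a median of −0.17, and 0 passed. Of 5 mesenchyme and cartilage genes tested 4 were below 0 with a median of −0.27, and 0 passed. Of 6 ventral interneuron genes 4 were below 0 with a median of −0.10, and 0 passed. The 6 endothelial genes were all above 0 with a median of 0.04, and 0 passed. The blood genes were all above 0 with a median of 0.54, Hba-x passed (0.69), and their sums ran from 2837 to 4641 TPM in KO and from 2157 to 3455 TPM in heterozygote libraries. The 5 dorsal interneuron genes were above 0 as well, with a median of 0.25, and Ptf1a passed (0.81). Of 6 progenitor genes 4 were above 0 and 0 passed, Sox2 and Hes5 being at 0.22 (unadjusted p = 0.0150) and 0.25 (unadjusted p = 0.0341) in limma. Below 0 were Olig1, at low level (−1.32, unadjusted p = 0.0751), and Olig2 (−0.16, unadjusted p = 0.468). The progenitor sums were 238 to 266 TPM in KO and 197 to 226 TPM in heterozygote libraries. Most of each sum was Sox2 and Hes5, with means of 105 and 117 TPM in KO and 89.8 and 98.8 TPM in heterozygotes. In the brachial KO the 7 blood genes were again above 0 with a median of 0.49 and 0 past the threshold, the MN genes had a median of 0.07 with 0 past it, and Prdm12 of the sensory list (0.96) and Gata3 of the ventral interneuron list (0.71) passed.

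Whether the effect of the mutation differed between levels was tested by the interaction over all 12 libraries. At an adjusted p under 0.05, 0% of the 16736 genes passed in limma, with 740 at an unadjusted p under 0.05, and 0 of the 10 members passed at either threshold. Cdh12 (−0.55, interval −1.19 to 0.08, unadjusted p = 0.0829) and Cdh20 (−0.53, interval −1.17 to 0.11, unadjusted p = 0.0941) had the largest values among the members. For both, the KO mean was above the heterozygote mean at the brachial level (5.45 against 4.45 TPM for Cdh12, 4.50 against 4.02 TPM for Cdh20) and below it at the lumbar level (2.51 against 3.03 TPM, and 2.48 against 3.15 TPM). The other 8 lay between −0.14 and 0.05.

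**Figure D5:**
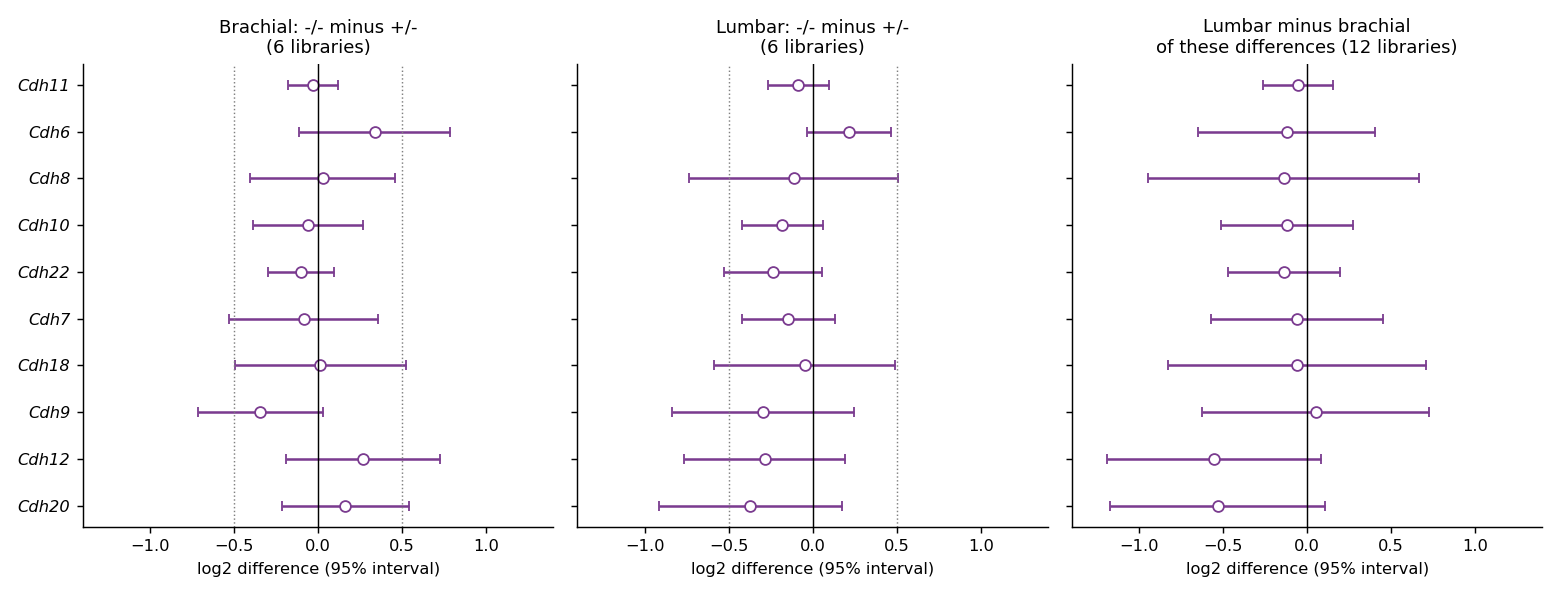
Isl2 -/- minus Isl2 +/- difference on the log2 scale for each member at the brachial level (left) and the lumbar level (middle), and the lumbar minus brachial difference between these (right), with 95% intervals from limma; dotted lines mark the threshold of 0.5 and open points are not called. Every interval includes 0, and the points run from −0.34 to 0.34 on the left and from −0.37 to 0.21 in the middle.

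Among related genes, 0 of the 2 other type II and 0 of the 3 type I cadherins tested passed in the KO at either level. Of 14 catenins and partners 0 passed at either level, with medians of 0.18 in brachial and −0.03 in lumbar cord.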

How the data were processed

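Total RNA of E12.5 ventral spinal cord was sequenced after ribosomal RNA removal with a stranded kit, in 3 libraries per group, from 3 animals per group by the study's account. The authors trimmed reads with Trimmomatic 0.38 after FastQC 0.11.7, mapped them to mm10 with HISAT2 2.1.0 and Bowtie2 2.3.4.1, and ran StringTie 2.1.3b on each library, per the labels and the methods of the study. TPM, FPKM and coverage stand in the deposited tables as StringTie wrote them for the authors: TPM is scaled to a fixed total, FPKM to length and mapped fragments, and coverage is the mean depth per base. The deposited tables hold no read counts, so the count-based comparison of the study was replaced by limma. Aligned bases per library follow from coverage divided by FPKM, but the counting error of a single value cannot be given.

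TPM was divided by median-of-ratios size factors (5 abundant small RNAs took 23.7% to 38.2% of it), 0.1 was added, and log2 values of genes with a mean of at least 0.5 TPM entered limma 3.58.1 (R 4.3.3; lmFit, then eBayes with trend). All differences are on this log2 scale, which understates changes of low genes. KO was compared with heterozygote in the 6 libraries of each level (called at a log2 difference beyond 0.5 and an unadjusted p under 0.05, as in the study), and the levels and the interaction in all 12 (called at a Benjamini-Hochberg adjusted p under 0.05). The fits were tested on simulated data.

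Symbols came from RefSeq for GRCm38.p6 (45679 of 45777 identifiers matched), exons from GENCODE. The 10 members are all named; of other lists, genes are named where called or needed beside a result, and for each member called between levels the 3 genes of highest correlation, of which 1 for Cdh7 is not reported here. The members and lists were chosen with earlier results of these data known. Each result was recomputed with a pseudocount of 0.01 or 1, with the filter dropped or set to 1 TPM, and with TPM as deposited, quantile normalization, coverage, no trend, a replicate block, and leaving out each library. KO was also compared with heterozygote in one fit over all 12 libraries, and the levels in each genotype alone. Tables were handled with Python 3.11.15 and pandas 2.3.3 and drawn with matplotlib 3.10.9.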

Additional observations from a re-analysis of the deposited data

How the results depend on the processing

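Between levels, Cdh7, Cdh10, Cdh12, Cdh18 and Cdh22 stayed lower and past the threshold under every alternative over both genotypes. Leaving out 1 library gave 5 to 7 members called and 2065 (without brachial heterozygote replicate 2) to 3554 genes in all (3101 with all libraries). Heterozygotes alone gave 3 members and 502 genes, KO libraries alone 0 members and 293 genes, each with 6 libraries. With TPM as deposited the median of all genes moved by −0.13, 77.4% of calls were lower in place of 52.1%, and Cdh18 was at −1.15 and Cdh22 at −0.51. Cdh11 turned to −0.133 with TPM as deposited, −0.0327 with quantile normalization and −0.0207 in KO libraries, and ran from −0.0102 to 0.0370 without 1 library.

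For KO against heterozygote, brachial calls over all genes were 525, and 1258 as deposited (47 lower, median shift 0.16), 793 with no filter, 344 with a pseudocount of 1 and 283 to 1396 without 1 library, with 0 to 1 members. Of the calls 28.2% were lower, and 43.3% under quantile normalization. Lumbar calls were 292, and 620 with no filter, 178 with a pseudocount of 1 and 292 to 444 without 1 library, with 0 to 2 members. For the difference between levels, all genes gave 0, and 1 with no filter, 1 with the replicate block and 0 to 1 without 1 library, with 0 members throughout.

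Small brachial differences changed sign: as deposited Cdh7 was 0.0892, Cdh10 0.115, Cdh11 0.145 and Cdh22 0.0743; with quantile normalization Cdh11 was 0.0157 and Cdh18 −0.0355; with coverage Cdh7 was 0.0266 and Cdh18 −0.0484. In the difference between levels, Cdh9 was −0.114 as deposited and Cdh18 0.0125 with coverage. Without 1 library, brachial values ran from −0.281 to 0.0381 for Cdh7, −0.0787 to 0.212 for Cdh8, −0.183 to 0.0953 for Cdh10 and −0.20 to 0.24 for Cdh18, and lumbar values from −0.35 to 0.14 for Cdh8 and −0.22 to 0.20 for Cdh18. The difference between levels ran from −0.317 to 0.0474 for Cdh6, −0.18 to 0.14 for Cdh7, −0.37 to 0.12 for Cdh8, −0.18 to 0.21 for Cdh9, −0.275 to 0.00245 for Cdh10, −0.0970 to 0.00757 for Cdh11 and −0.29 to 0.19 for Cdh18. The cause of these changes was not tested.

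Replicate numbers were not used as pairs in the main fits. Heterozygote and KO libraries of one number deviated from their group means with correlations of 0.0801, 0.229 and 0.0096 at the brachial and 0.144, −0.209 and −0.0937 at the lumbar level, and brachial and lumbar libraries of one number with −0.0224, 0.198 and 0.338 in heterozygotes and 0.0305, −0.214 and 0.0712 in KO embryos. In 3 of these 6 brachial and lumbar pairs the sex-linked genes differed, so those pairs were not from 1 embryo. The study names 3 heterozygote and 3 homozygote animals for the cords of both levels. Libraries of the levels may therefore share embryos, under the same or different numbers, which the labels do not tell. The main fits over all 12 libraries took them as independent. The replicate block gave 7 members between levels, adding Cdh9, and 2330 genes, and for KO against heterozygote 0 members with 533 brachial and 306 lumbar genes.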
